A study of Mus musculus with 4 samples.

Results

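S phase neutrophil precursors are the dividing marrow cells that carry neutrophil granule transcripts together with transcripts of DNA replication. They were picked cell by cell from single-cell RNA counts. A cell belonged when Camp and Ngp together held at least 1% of its unique molecular identifiers (UMIs, each counting 1 captured RNA molecule) and Retnlg, a gene of mature neutrophils, held under 0.1%. These 2 limits define the neutrophil gate. In addition, the S sum (UMIs of Rrm2, Tyms, Mcm4, Hells and Ccne2) and the M sum (UMIs of Ube2c, Cenpf, Ccnb1 and Nusap1) had to reach 5 together, with the S sum no lower than the M sum. The rule found 4093 cells among the 31209 cells that passed the quality filter in the 4 libraries. Of these 4093, 980 came from Control, 871 from Butyrate, 1248 from B12 and 994 from B12+Butyrate, the order in which all sets of 4 values stand below.

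The cells are bone marrow cells of transplanted mice. Recipients had been lethally irradiated and received CD45.1+ Tet2+/+ competitor marrow and CD45.2+ Tet2+/- marrow in equal parts. Only CD45.2+ cells were sequenced, and the labels give all 4 groups, Control included, as Tet2+/-, heterozygous for an enzyme that oxidises methylated cytosine in DNA. Treatment began after 1 month of engraftment and ran for 7 months. Control mice had PBS injections and 100 mM NaCl in the drinking water, and Butyrate mice had PBS injections and 100 mM sodium butyrate in the water. The B12 group had intraperitoneal injections of 0.29 µg vitamin B12, 2 per week, with 100 mM NaCl in the water, and the B12+Butyrate group had both agents. The labels give neither the age of the mice nor the CD45 allele of the recipients, so host cells that survived irradiation cannot be placed. Each group is 1 library of viably frozen marrow pooled from 3 mice, sorted as live CD45.2+ cells, with cKit+ and cKit- cells mixed 50:50. With n = 1 library per group, no difference between groups has a replicate check and none was tested. Intervals below cover counting error only, and they are too narrow where a few cells carry most UMIs of a gene.

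Neutrophils arise from granulocyte-monocyte progenitors through promyelocytes, which load primary granules with enzymes such as myeloperoxidase, and myelocytes, which load secondary granules with lactoferrin and cathelicidin. Division ends at the myelocyte stage. In each cycle a cell licenses replication origins with the MCM helicase in G1, copies its DNA in S phase with a fork machinery clamped by PCNA and fed by ribonucleotide reductase and thymidylate synthase, and packs the copies with new histones before mitosis. Vitamin B12 is the cofactor of methionine synthase, which links the folate cycle and thus thymidylate supply to methylation. Butyrate inhibits histone deacetylases.

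Members were deep cells. Their median UMI count was 19966.5, 20035, 19037.5 and 20908, and their summed depth ran from 18397195 to 25647490 UMIs per library. The 3423 mitotic precursors of the same gate (M sum above the S sum, both together at least 5) had medians of 20858, 21252, 20138.5 and 22388.5 UMIs. The 3407 non-cycling precursors (S sum plus M sum at most 1) had lower medians of 11319, 12142, 11193.5 and 12304.5 UMIs. Mitochondrial transcripts held a median of 1.05%, 1.17%, 0.951% and 1.14% of UMIs in members. A doublet caller marked 13.5%, 11.5%, 11.5% and 12.2% of members and 15.5%, 8.62%, 12.1% and 11.3% of mitotic precursors. It marked 5.44%, 6.30%, 3.88% and 5.36% of non-cycling precursors, and all marked cells were kept. Pairs of libraries shared 13 to 30 barcodes, of which at most 1 per pair was a member in both libraries' counts.

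**Figure D1:**
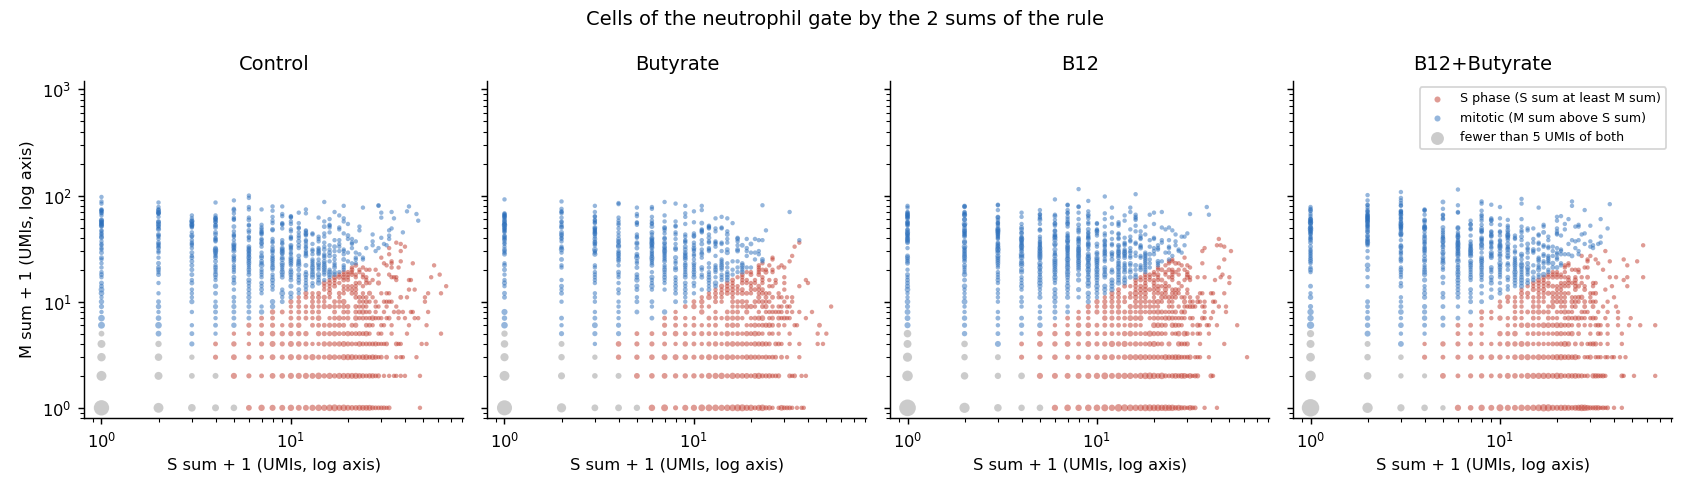
Cells of the neutrophil gate in each library, placed by their S sum (x axis, UMIs + 1, log axis) and M sum (y axis, UMIs + 1, log axis), with larger points for more cells at the same place. Red points are S phase precursors, blue points are mitotic precursors and grey points are cells under 5 UMIs of both. In all 4 libraries red and blue cells meet along the diagonal without a gap.

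The label held for the granule program. Fcnb, which encodes ficolin B of secondary granules and was not used by the rule, was at 1628, 1827, 1749 and 1906 CPM (UMIs of a gene scaled to 1000000 UMIs in all) in members. It had a UMI in 99.4%, 99.4%, 99.4% and 99.3% of them, against 4.23%, 2.00%, 3.65% and 3.43% of T cells of the same libraries, which should lack it. T cells had at least 2 UMIs of Cd3d, Cd3e and Cd3g, none of Cd79a and Cd79b, and under 1% Camp and Ngp. Their median depth was 5027, 5028, 5007 and 5730 UMIs. The Camp and Ngp limit left out T cell barcodes rich in neutrophil RNA, so their low Fcnb share is in part set by it. Ltf, Lcn2, Chil3 and Cebpe were also present in every library, at 4704 to 5410, 10030 to 11130, 4931 to 5866 and 355 to 411 CPM. The genes that chose the cells are given as a description: Camp stood at 45190 to 49560 CPM, Rrm2 at 292, 287, 316 and 290.3 CPM and Hells at 148, 134, 145 and 156 CPM. Markers of other lineages were low. The 7 T cell markers summed to 7.40, 5.54, 3.28 and 5.64 CPM, the 6 B cell markers to 40.0, 42.7, 18.4 and 28.6 CPM, the 7 erythroid markers to 2.34, 2.94, 2.53 and 2.04 CPM, the 4 megakaryocyte markers to 3.49, 2.50, 2.50 and 3.33 CPM and the 5 stem cell markers to 17.0, 17.7, 15.1 and 15.3 CPM. The 5 NK cell markers summed to 183, 157, 167 and 164 CPM, nearly all from Nkg7 (180.4, 155, 163 and 163 CPM), while Ncr1 did not exceed 0.273 CPM. The 7 mature neutrophil markers summed to 222, 190, 196 and 178 CPM. This sum holds Retnlg, at 68.7, 50.5, 50.7 and 44.1 CPM, which the rule itself kept low. The 6 macrophage markers summed to 57.7, 78.4, 72.3 and 64.3 CPM, with Vcam1 at 43.5, 69.9, 64.6 and 55.5 CPM and C1qa at 1.29, 0.0544, 0 and 0.622 CPM. The 5 basophil and mast cell markers summed to 5.74, 10.7, 40.9 and 5.91 CPM; the B12 value came largely from 1 cell, which held 83.4% of the Prss34 UMIs. The monocyte, dendritic cell, plasma cell and granulocyte-monocyte progenitor markers differed between libraries and are given beside the results they move with.

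The 76 cells with exactly 5 UMIs of both sums had Pcna at 239 CPM and Mki67 at 165 CPM, and the 88 cells just outside, with 4 UMIs, had 174 and 179 CPM, while Mpo was at 86.7 CPM inside and 369 CPM outside and Elane at 265 and 928 CPM. The 127 cells with equal sums had Mki67 at 545 CPM, and the 124 cells whose M sum was higher by 1 UMI had 559 CPM. At the low end of the granule limit, 39 members with 1.0 to 1.2% Camp and Ngp had Elane at 11810 CPM and Mpo at 5605 CPM, and 20 cells at 0.8 to 1.0% had 11350 and 5854 CPM, while Ltf was at 448 CPM inside and 269.9 CPM outside.

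S phase precursors made up 11.2% of filtered cells in Control (exact Clopper-Pearson 95% interval 10.5 to 11.9%), 12.8% in Butyrate (12.04 to 13.6%), 15.5% in B12 (14.7 to 16.3%) and 13.1% in B12+Butyrate (12.3 to 13.8%). The B12 library had the highest share and Control the lowest, and the intervals of Butyrate and B12+Butyrate overlapped. The ratio of shares was 1.15 (95% interval 1.05 to 1.25) for Butyrate over Control, 0.842 (0.779 to 0.909) for B12+Butyrate over B12, 1.38 (1.28 to 1.497) for B12 over Control and 1.02 (0.935 to 1.11) for B12+Butyrate over Butyrate. The fixed mixture of cKit+ and cKit- cells and the size of every other lineage set these shares. Within the neutrophil gate, which held 31.4%, 33.9%, 43.2% and 41.9% of filtered cells, S phase precursors were 35.7% (33.9 to 37.5%), 37.9% (35.9 to 39.9%), 35.9% (34.3 to 37.6%) and 31.1% (29.5 to 32.8%). Here Control, Butyrate and B12 had overlapping intervals and B12+Butyrate lay below all of them. Its non-cycling share of the gate was the highest, at 35.1% (33.4 to 36.7%) against 25.4%, 27.6% and 27.5%. Of all cycling cells, S phase plus mitotic, the S phase cells were 53.3%, 57.7%, 54.6% and 52.7%, with intervals that overlap except for Butyrate (55.2 to 60.2%) against B12+Butyrate (50.4 to 55.0%). Cells with at least 5000 UMIs were also thinned to 5000, and shallower cells were left out. This left 7158, 5512, 6621 and 6460 of the filtered cells. S phase precursors were 8.06%, 8.31%, 11.6% and 8.90% of them, and the intervals of Control (7.44 to 8.72%) and Butyrate (7.59 to 9.07%) then overlapped. That of B12+Butyrate (8.22 to 9.62%) overlapped both. Shares of the gate were then 21.8%, 20.4%, 22.7% and 18.2%, with overlapping intervals for Control (20.2 to 23.4%) and Butyrate (18.8 to 22.2%). B12+Butyrate (16.9 to 19.6%) was still lowest, but its interval now overlapped that of Butyrate.

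**Figure D2:**
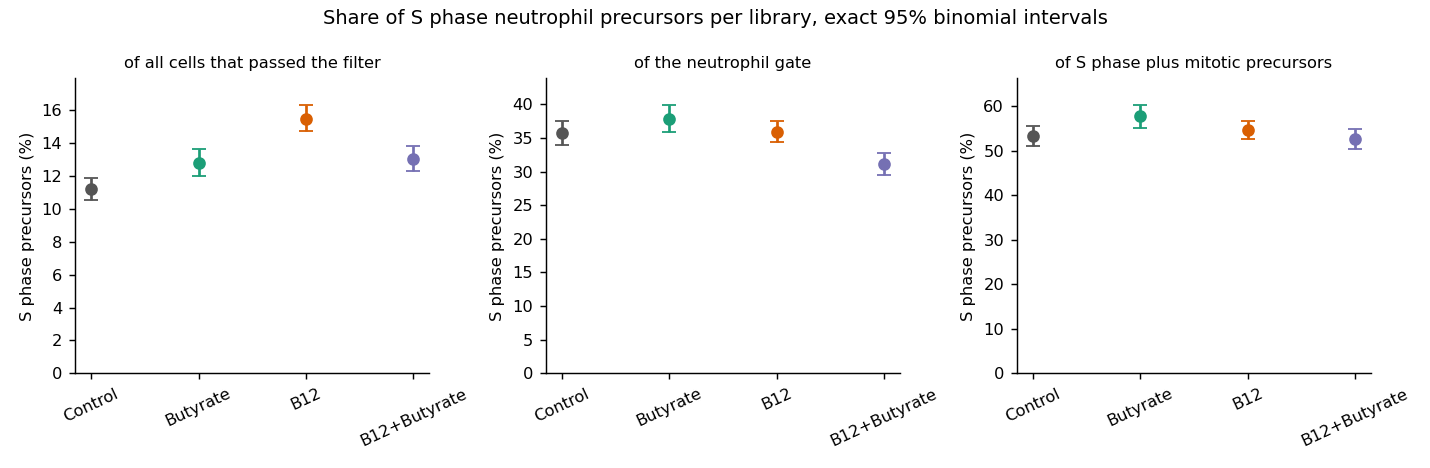
Share of S phase precursors per library (percent, y axes starting at 0) of all filtered cells, of the neutrophil gate, and of S phase plus mitotic precursors; points are the shares and bars the exact 95% binomial intervals. B12 is highest among filtered cells (15.5%) and B12+Butyrate lowest in the gate (31.1%).

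Promoters were searched for the letters by which E2F factors, which switch on S phase genes, are known to bind. RefSeq promoters of mouse build GRCm38.p6 were searched in the 250 bases before the start, on both strands, for TTTCCCGC, TTTCGCGC, TTTGCCGC and TTTGGCGC. The 4 words can overlap each other's reverse complement. Shares over all promoters count promoters, while shares of a list count genes with the letters in any of their promoters. They occur in 611 of 32851 promoters (1.86%), in 6 of 14 of origin licensing genes (42.9%), 6 of 14 of E2F and G1/S genes (42.9%), 4 of 25 of replication fork genes (16%), 3 of 9 of DNA methylation upkeep genes (33.3%), 2 of 11 of repair genes (18.2%), 1 of 17 of histone supply genes (5.88%), 1 of 6 of CDK inhibitors (16.7%), 1 of 23 of G2/M genes (4.35%) and 0 of 10 of nucleotide supply genes. The letters TTTGAA and TTCGAA, the cell cycle homology region (CHR) of genes that peak in mitosis, occur in 5633 promoters (17.1%), in 10 of 23 G2/M genes (43.5%), 6 of 17 histone supply genes (35.3%), 2 of 9 methylation upkeep genes (22.2%), 3 of 14 E2F and G1/S genes (21.4%), 5 of 25 fork genes (20%), 1 of 6 CDK inhibitors (16.7%), 2 of 14 licensing genes (14.3%), 1 of 10 nucleotide supply genes (10%) and 1 of 11 repair genes (9.09%). Of the genes of the S sum, Rrm2, Tyms and Hells have an entry, and of the M sum all 4. Rrm2 and Hells are shown as genes of the S sum without and with the letters, Mcm6 as the licensing gene with the most matches, and Ube2c and Cdk1 as mitotic genes with CHR letters. Each run is the last 120 bases before the start, 5′ to 3′ on the gene's strand, with matches in capitals.
Rrm2 (chr12:24708134-24708253, plus strand): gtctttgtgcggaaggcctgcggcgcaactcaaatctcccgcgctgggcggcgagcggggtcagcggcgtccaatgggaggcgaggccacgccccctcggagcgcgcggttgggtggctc
Hells (chr19:38930870-38930989, plus strand): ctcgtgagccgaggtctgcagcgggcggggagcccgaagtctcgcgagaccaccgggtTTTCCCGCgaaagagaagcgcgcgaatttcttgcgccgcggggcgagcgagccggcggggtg
Mcm6 (chr1:128359706-128359825, minus strand): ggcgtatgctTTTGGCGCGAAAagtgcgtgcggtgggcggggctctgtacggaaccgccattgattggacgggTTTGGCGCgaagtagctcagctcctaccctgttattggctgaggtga
Ube2c (chr2:164769809-164769928, plus strand): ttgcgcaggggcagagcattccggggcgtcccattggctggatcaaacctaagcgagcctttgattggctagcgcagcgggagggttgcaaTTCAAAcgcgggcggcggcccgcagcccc
Cdk1 (chr10:69352913-69353032, minus strand): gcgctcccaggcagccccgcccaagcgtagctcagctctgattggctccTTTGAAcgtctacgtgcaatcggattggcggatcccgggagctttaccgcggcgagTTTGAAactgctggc
The Hells match begins 62 bases before the start and the Ube2c match, TTCAAA on this strand, 29 bases before it. In Mcm6 a match on each strand overlaps at 110 and 106 bases, and another lies at 47 bases. Matches describe letters only, and no binding was measured.

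Origin licensing genes were high in S phase precursors and lower in mitotic ones. All values for cell cycle lists against the other classes are a description, since these genes move with those of the rule; the call is by edgeR's quasi-likelihood test with libraries as blocks (4 libraries of different treatment, Benjamini-Hochberg adjusted p at most 0.05). Across all genes, 3742 of 12978 tested (28.8%) were higher in S phase than in mitotic precursors and 3882 (29.9%) lower. Against non-cycling precursors, 4738 of 12460 (38%) were higher and 4528 (36.3%) lower. These backgrounds are large, so a count is read against them. Of 15 licensing genes, 14 were higher than in mitotic precursors, with a median log2 difference of 1.34, and 14 were higher than in non-cycling precursors (median 4.33). Mcm6, a helicase subunit, was at 145, 154, 149.9 and 167 CPM in members, 23.8 to 31.6 CPM in mitotic and 4.45 to 6.61 CPM in non-cycling precursors. Cdc6, which loads the helicase, was at 69.6, 60.01, 64.9 and 62.6 CPM against 6.02 to 9.07 and 1.12 to 2.46 CPM. Gmnn, the inhibitor of relicensing, was at 188, 187, 202 and 192 CPM against 95.98 to 107 and 5.31 to 10.4 CPM. The classes did not overlap over the libraries for any of these 3 genes. Here and below, the share of all genes without overlap was not counted, so a lack of overlap sets no gene apart.

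Replication fork genes followed the same order. Of 32 genes, 31 were higher in members than in mitotic precursors (median log2 difference 1.23) and 32 were higher than in non-cycling precursors (4.13). Pcna, the sliding clamp, was at 435 (426 to 443), 474 (464 to 484), 443 (435 to 451) and 497 (488 to 506) CPM with exact 95% Poisson intervals. The libraries with butyrate were above those without, by 0.12 and 0.16 on the log2 scale, both under the 1.5-fold limit used for libraries. Mitotic precursors had Pcna at 115 to 134 CPM and non-cycling precursors at 51.7 to 58.5 CPM. Pola1, of the primase complex, was at 223, 201, 208 and 209 CPM against 36.7 to 60.04 and 2.65 to 5.34 CPM. Lig1, which joins lagging strand fragments, was at 202, 208, 201 and 212 CPM against 47.1 to 60.3 and 2.80 to 5.34 CPM. Clspn, the checkpoint mediator claspin, differed less from mitotic cells, at 107, 106, 104 and 111 against 48.8 to 51.6 CPM.

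Nucleotide supply genes were all 9 higher than in mitotic precursors (median log2 difference 0.74), and 8 of 9 were higher than in non-cycling precursors (3.28). Rrm1, the large subunit of ribonucleotide reductase, was at 157, 162, 149 and 152 CPM and stayed at 99.04 to 109.9 CPM in mitotic precursors, a difference of 0.46 on the log2 scale. Samhd1, which degrades deoxynucleotides, was the list's exception against non-cycling precursors, at 64.03, 53.98, 51.9 and 54.8 against 106 to 119.5 CPM. Among de novo purine and pyrimidine genes, which the rule did not use, 14 of 16 were higher than in mitotic precursors and none lower (median 0.76), and 15 of 16 were higher than in non-cycling precursors (2.15). Paics was at 78.1, 75.2, 75.02 and 77.1 CPM against 19.1 to 27.1 and 4.30 to 7.25 CPM (edgeR log2 difference 1.71, adjusted p 4.97e-11, and 3.52, adjusted p 6.63e-13).

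E2F and G1/S control genes were 17 of 20 higher and 2 lower than in mitotic precursors (median 0.66), and 19 higher and 1 lower than in non-cycling ones (2.10). E2f1, an activator, was at 58.3, 59.5, 55.4 and 60.1 CPM against 8.88 to 12.6 CPM, while E2f8, a late repressor, was at 137, 131, 147 and 145 against 115 to 129 CPM. Ccne1, the cyclin of S phase entry, was at 42.1, 45.3, 43.6 and 41.4 CPM against 10.1 to 11.3 CPM in mitotic and 0.0717 to 0.284 CPM in non-cycling precursors. Ccna2, cyclin A, was the reverse, at 64.5, 65.1, 63.7 and 62.4 against 142 to 156 CPM in mitotic precursors. Cdk6, a G1 kinase, stood at 182, 148, 158 and 159 CPM, 79.6 to 113 CPM and 47.3 to 55.5 CPM in the 3 classes. Of 5 tested CDK inhibitors, 1 was higher and 3 were lower than in mitotic precursors, and of 4, 2 were higher and 2 lower than in non-cycling ones. Cdkn2d (p19) was at 118, 119, 129 and 123 CPM in members, at 103 to 119.9 CPM in non-cycling precursors, and below the 263 to 308 CPM of mitotic ones. Cdkn1a (p21) was at 14.4, 16.4, 19.5 and 22.6 CPM, with both B12 libraries at the top. Its levels in non-cycling precursors were 1.86 to 4.07 CPM.

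Histone supply genes went both ways against mitotic precursors. Slbp, which protects replication-dependent histone mRNA, was at 248, 257, 287 and 284 CPM against 133 to 147 CPM in mitotic precursors, and the chaperone Nasp at 214, 221, 219 and 229 against 97.2 to 106 CPM. The linker histone H1f4 was at 485, 459, 542 and 437 CPM against 693 to 809.6 CPM, and H2ax at 175, 178, 196 and 177 against 412 to 477 CPM, both lower in members in every library. In all, 10 of 20 genes were higher and 7 lower than in mitotic precursors, and 20 of 20 were higher than in non-cycling ones. Replication-dependent histone mRNA has no poly(A) tail in normal processing, so an oligo(dT) assay counts an unknown part of it. H4c4 was at 223 (217 to 229), 278 (270.2 to 286), 293 (286 to 299) and 295 (288 to 303) CPM, lowest in Control with an interval apart from the other 3, which lie close together.

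Maintenance of DNA methylation follows the fork. Uhrf1, which reads hemimethylated DNA, was at 124, 121, 128 and 126 CPM in members, 42.6 to 48.5 CPM in mitotic and 2.22 to 4.47 CPM in non-cycling precursors. Dnmt1, the maintenance methyltransferase, was at 161, 164, 170.3 and 167 CPM, 90.1 to 96.5 CPM and 16.1 to 21.2 CPM. Tet2, labelled heterozygous in every group, was at 61.2, 60.6, 55.3 and 52.5 CPM in members and 49.3 to 59.5 CPM in mitotic precursors, with no call between them (edgeR log2 difference -0.03, adjusted p 0.601). It was lower in members than in non-cycling precursors (56.8 to 74.1 CPM, -0.42, adjusted p 3.78e-06). A 3′ assay does not show which allele a UMI came from, so these levels do not check the genotype. Of the 8 tested genes of the list, 4 were higher and none lower than in mitotic precursors, and 5 were higher and 2 lower than in non-cycling precursors.

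Repair and checkpoint genes were 13 of 18 higher and 3 lower than in mitotic precursors (median 0.94), and 18 of 18 higher than in non-cycling ones (4.80). Fancd2, of the crosslink repair pathway, was at 27.01, 29.5, 28.03 and 28.8 CPM and did not separate from mitotic precursors (23.00 to 28.6 CPM). G2/M genes were 22 of 22 lower than in mitotic precursors (median -1.51) and 22 of 22 higher than in non-cycling ones (3.23). Top2a, topoisomerase II, was at 352, 371, 379 and 368 CPM against 626 to 686 CPM, and Cdc20, the mitotic exit factor, at 32.3, 32.6, 32.1 and 29.1 against 148 to 166 CPM.

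Primary granule genes, which the rule did not use, had the largest median difference from mitotic precursors among the lists outside the cell cycle. Of 10 tested, 9 were higher in members and none lower, with a median edgeR log2 difference of 1.196, against a share of 28.8% higher over all genes. Elane, neutrophil elastase, was at 2351, 1737, 2270 and 2004 CPM in members and 676, 304, 532 and 376 CPM in mitotic precursors of the 4 libraries. Every member value lay above every mitotic value, and the difference within a library was 2.18 ± 0.31 on the log2 scale (SD, n = 4 libraries; pseudocount 10 CPM), with an edgeR adjusted p of 1.22e-10. Mpo, myeloperoxidase, was at 1055, 675, 785 and 716 CPM against 327, 136, 187 and 142 CPM (2.04 ± 0.27, edgeR adjusted p 9.01e-11). The excess was uneven among members. Those with 6% and over of their UMIs from Camp and Ngp were 75.7%, 81.9%, 81.1% and 83.8% of members. Their ranges of Elane and Mpo, given below, overlapped those of mitotic precursors, which were not split this way. Prtn3 (proteinase 3) was at 1807, 1155, 1538 and 1219 CPM against 268 to 633 CPM, and Ctsg (cathepsin G) at 428, 221, 331 and 267 against 47.1 to 159.9 CPM. Ms4a3, a marker of granulocyte-monocyte progenitors and their offspring, was at 449, 402, 481 and 430.5 against 221 to 272 CPM. Against non-cycling precursors 8 of 10 were higher and 1 lower (median 3.26). These cells had Elane at 46.98, 10.6, 19.01 and 9.83 CPM and Mpo at 52.9, 17.3, 17.8 and 11.1 CPM. Ctsc, the activator of granule proteases, did not pass against mitotic precursors (41.3, 24.2, 26.8 and 17.2 CPM, 0.20, edgeR adjusted p 0.152). By edgeR the log2 difference for Mpo over mitotic precursors was 1.99, and 2.71 with called doublets removed.

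Secondary granule genes ran the other way. Leaving out Camp and Ngp, 12 of 15 were lower in members than in mitotic precursors and 1 higher (median -0.21), and 14 of 15 were lower than in non-cycling precursors (-1.02). Ltf, lactoferrin, was at 4794, 5329, 4704 and 5410 CPM in members, 6083, 6759, 6196 and 6692 CPM in mitotic and 9904, 10500, 10180 and 10680 CPM in non-cycling precursors, and the 3 classes did not overlap. The edgeR log2 difference was -0.45 (adjusted p 1.45e-10) and -1.36 (adjusted p 1.1e-12). Fcnb was the member higher in S phase in both comparisons, 0.61 over mitotic (1007 to 1168 CPM) and 1.39 over non-cycling precursors (469 to 621 CPM). Mmp8, neutrophil collagenase, was at 12.8, 11.1, 11.4 and 15.6 CPM in members and 186 to 309.6 CPM in non-cycling precursors. Lcn2 was lower than in mitotic precursors by a small amount (-0.17, edgeR adjusted p 4.99e-06), and the call was lost with cells thinned to 5000 UMIs (-0.03). Of 19 maturation genes, 11 were lower and 1 higher than in mitotic precursors, and 18 were lower and none higher than in non-cycling ones (median -1.43). Mmp9, gelatinase, was at 22.7, 22.8, 17.8 and 22.2 CPM against 84.6, 73.5, 77.4 and 78.1 and 552, 525, 516 and 592 CPM, and Fpr2, a formyl peptide receptor, at 28.9, 29.5, 26.6 and 31.3 against 56.3 to 72.6 and 219.5 to 262 CPM.

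**Figure D3:**
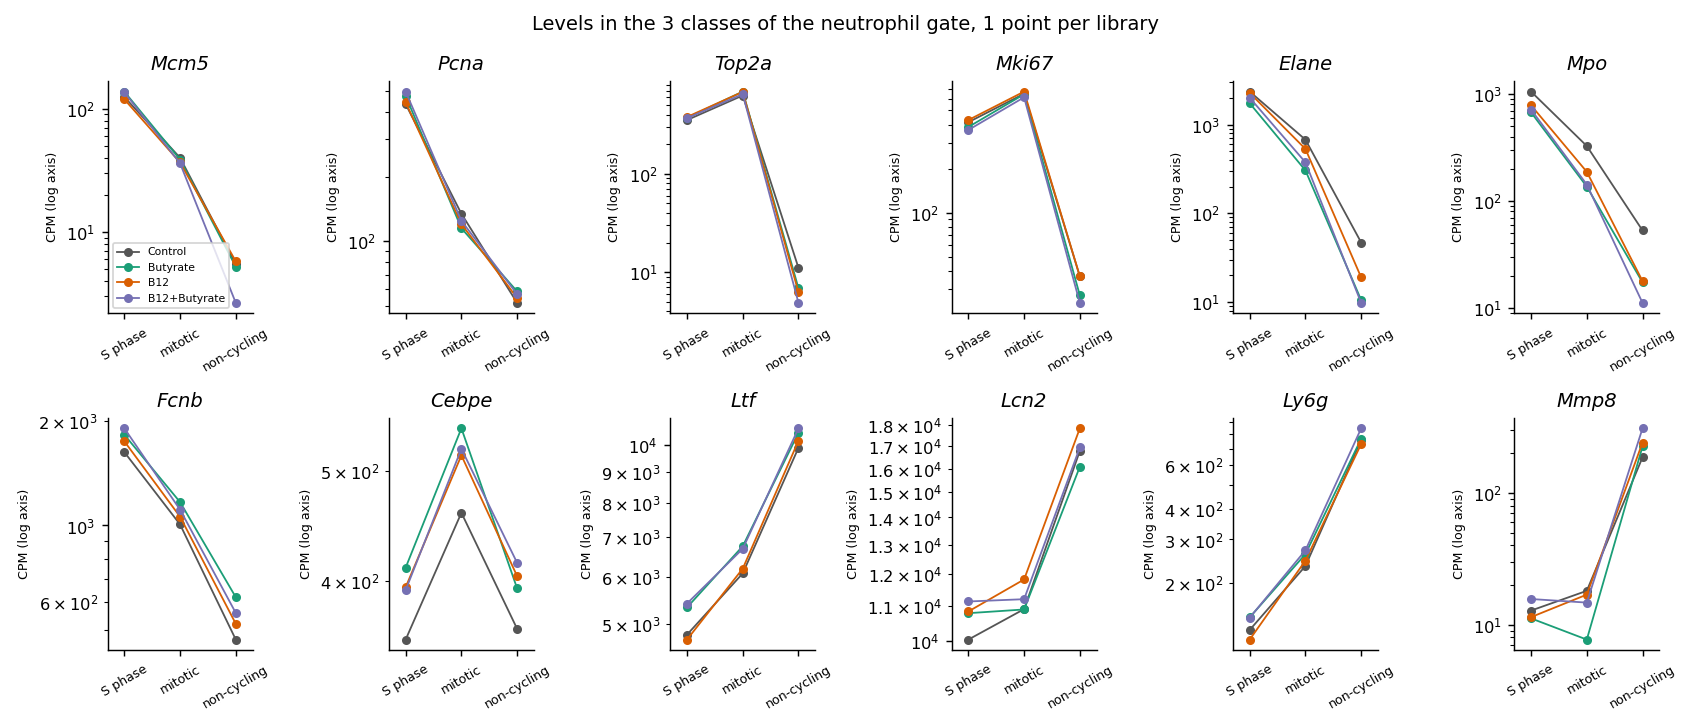
Levels of 12 genes (CPM, log axes) in S phase, mitotic and non-cycling precursors of the same gate, 1 point and line per library. Elane and Mpo are highest in S phase precursors and Ltf, Lcn2 and Ly6g in non-cycling ones in all 4 libraries, while Cebpe peaks in mitotic precursors. Each point sums all cells of a class, whatever their share of Camp and Ngp.

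Lineage factors went both ways. Cebpa, the factor of granulocytic commitment, was at 21.7, 26.3, 23.5 and 25.8 CPM in members and 8.32 to 12.2 CPM in mitotic precursors (edgeR 1.27, adjusted p 2.02e-07). Cebpe, the factor of secondary granules, was lower in members than in mitotic precursors, at 355, 411, 395 and 393 against 459, 545, 516 and 522 CPM (-0.49, edgeR adjusted p 9.87e-10). Gfi1 was at 33.6, 34.8, 33.7 and 30.5 CPM, under the 38.1 to 44.9 CPM of mitotic precursors, against 13.7 to 19.01 CPM in non-cycling ones; the call against the latter (edgeR log2 difference 0.65) was lost with cells thinned to 5000 UMIs (0.19, edgeR adjusted p 0.14). Of 16 factors, 2 were higher and 9 lower than in mitotic precursors, and of 15, 8 were higher and 7 lower than in non-cycling ones. Among surface genes, Kit, the stem cell factor receptor used for the sort, was at 46.1, 48.9, 46.05 and 49.6 CPM against 17.03 to 19.4 CPM in non-cycling precursors (1.06, edgeR adjusted p 1.4e-09). It exceeded mitotic precursors by 0.18 (edgeR adjusted p 0.00202), a call that was lost without the library block (adjusted p 0.074). Ly6g, the marker of later neutrophils, was at 129, 145, 118 and 145 CPM against 234 to 271 and 731 to 846 CPM. Of 16 surface genes, 4 were higher and 9 lower than in mitotic precursors, and 4 were higher and 10 lower than in non-cycling ones.

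Folate genes were mostly higher in members. Of 17 folate and methionine cycle genes tested, 12 were higher and 1 lower than in mitotic precursors (median 0.32), and 11 of 16 were higher than in non-cycling ones with 2 lower (1.88). Shmt1, which makes one-carbon units in the cytosol, was at 12.3, 11.4, 11.7 and 11.9 CPM in members, 1.85 to 3.19 CPM in mitotic and 0.254 to 1.12 CPM in non-cycling precursors (edgeR adjusted p 2.81e-09 and 1.09e-09). Mtr, the B12-dependent methionine synthase, was at 18.00 (16.3 to 19.9), 18.6 (16.7 to 20.7), 17.9 (16.3 to 19.6) and 17.6 (15.9 to 19.5) CPM, with 4 overlapping intervals. Mtr was higher than in mitotic precursors (13.7 to 15.2 CPM, 0.22, edgeR adjusted p 0.00432) and non-cycling ones (5.77 to 8.11 CPM, 0.98). Of 12 cobalamin genes, 7 were higher and 2 lower than in mitotic precursors, and of 11, 3 were higher and 4 lower than in non-cycling ones. Cd320, the receptor for B12 bound to transcobalamin, was at 1.98, 1.196, 1.36 and 1.16 CPM and did not pass against mitotic precursors (edgeR adjusted p 0.262). Tcn2, transcobalamin, was at 71.4, 82.2, 66.9 and 77.2 CPM. Among butyrate targets and transporters, 5 of 15 were higher and 4 lower than in mitotic precursors, and 7 were higher and 5 lower than in non-cycling ones. Hdac2, a class I deacetylase, was at 45.9, 41.3, 43.5 and 43.3 CPM against 28.4 to 32.1 and 11.5 to 13.5 CPM.

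Growth genes were also higher in members. Of 15 genes of ribosome making, 13 were higher and 1 lower than in mitotic precursors (median 0.83), and 14 were higher and 1 lower than in non-cycling ones (1.70). Npm1, nucleophosmin, was at 302, 224, 262 and 245 CPM against 126 to 203 and 48.3 to 79.3 CPM. Of 15 ER chaperones and stress genes, 13 were higher and 1 lower than in mitotic precursors (0.50), and 8 were higher and 5 lower than in non-cycling ones (0.29). Sdf2l1, an ER chaperone cofactor, was at 88.8, 55.3, 80.6 and 64.3 CPM against 10.6 to 29.99 and 5.81 to 10.6 CPM. Interferon response genes were 2 of 21 higher and 7 lower than in mitotic precursors, and 3 higher and 15 lower than in non-cycling ones (-1.03). NF-kB genes were 3 of 17 higher and 7 lower, and 0 higher and 13 lower. Handling response genes, the immediate early and heat shock genes that move during cell preparation, were 5 of 15 higher and 1 lower, and 3 higher and 10 lower. Of 9 genes of the list of library-wide shifts, 2 were higher and 4 lower than in mitotic precursors, and 0 were higher and 8 lower than in non-cycling ones. Of 2 sex-linked genes tested, 0 differed from mitotic precursors and 1 was higher than in non-cycling ones.

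Further genes stood out by the size of their difference. Over mitotic precursors, Dtl, which targets Cdt1 for degradation in S phase, was at 120 CPM on average against 29.4 CPM, and Srgn, the granule proteoglycan serglycin, at 556 against 209 CPM. Lair1, Siva1, Nkg7 and Rif1 were higher by 1.17 to 1.27 on the log2 scale. Lower were Arl6ip1 (158 against 633 CPM), the tubulin Tubb4b (103 against 361 CPM), and Dnah8, Kif20b, Depdc1a, Cdkn3, Arhgap19, Efcab11, Jpt1 and Inhba, by -1.92 to -1.40. Over non-cycling precursors the replication-linked histones H2ac4, H3c3 and H2ac22, and Neil3, Cenpp, Pclaf, Smc2 and Diaph3 were higher by 4.93 to 7.33, together with Elane and Prtn3. Slfn4, Ly6g, AA467197, Lilrb4b, S100a6 and Cmah were lower by -2.88 to -2.61. The edgeR adjusted p of these genes was at most 2.2e-10. Cell cycle genes outside the lists, such as Dtl and the histones, are among them. They move with the genes of the rule, so their values only describe the classes. Igkc was called lower than in non-cycling precursors (-3.54, edgeR adjusted p 0.0304), but with called doublets removed it was higher (3.14). The call was lost without the Butyrate library (-2.10), without the B12 library (-2.12) and without the block (-1.91).

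Members differed among themselves along the granule axis. They were split by the share of Camp and Ngp, genes of the rule, into 1 to 3% (86, 56, 81 and 66 cells), 3 to 6% (152, 102, 155 and 95 cells) and 6% and over (742, 713, 1012 and 833 cells). The lowest band held 8.78% of members in Control and 6.43%, 6.49% and 6.64% in the others. Elane was at 8290 to 10820 CPM in the lowest band, 3712 to 5231 CPM in the middle and 622 to 766 CPM in the highest. Mpo was at 4588 to 4758 CPM, 1448 to 2053 CPM and 119.5 to 169 CPM in the 3 bands. The bands did not overlap for either gene. Progenitor factors were lower in the granule-rich band in every library. Gfi1 was at 70.00 to 92.1 CPM in the lowest and 22.8 to 25.7 CPM in the highest band, Myb at 183 to 244 and 61.5 to 68.1 CPM, and Cebpa at 55.2 to 72.6 and 12.6 to 19.3 CPM. Irf8, a monocyte and dendritic cell factor, was at 69.8 to 135 and 2.85 to 12.4 CPM, and Npm1 at 548 to 868 and 168 to 182 CPM. Secondary granule genes were higher along the bands. Ltf was at 688 to 986 CPM in the lowest and 5712 to 6333 CPM in the highest, Lcn2 at 1619 to 1944 and 12720 to 13090 CPM and Cd177, a neutrophil surface protein, at 177 to 244 and 754 to 789.9 CPM. Fcnb had no such order (1439 to 2228 and 1650 to 1864 CPM). Licensing and fork genes differed less: Mcm5 was at 128 to 167 and 117 to 136 CPM, and Pcna at 370.2 to 386 and 454 to 520.2 CPM in the outer bands. H1f4 was higher in the granule-rich band, at 214 to 353 and 481 to 596 CPM.

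**Figure D4:**
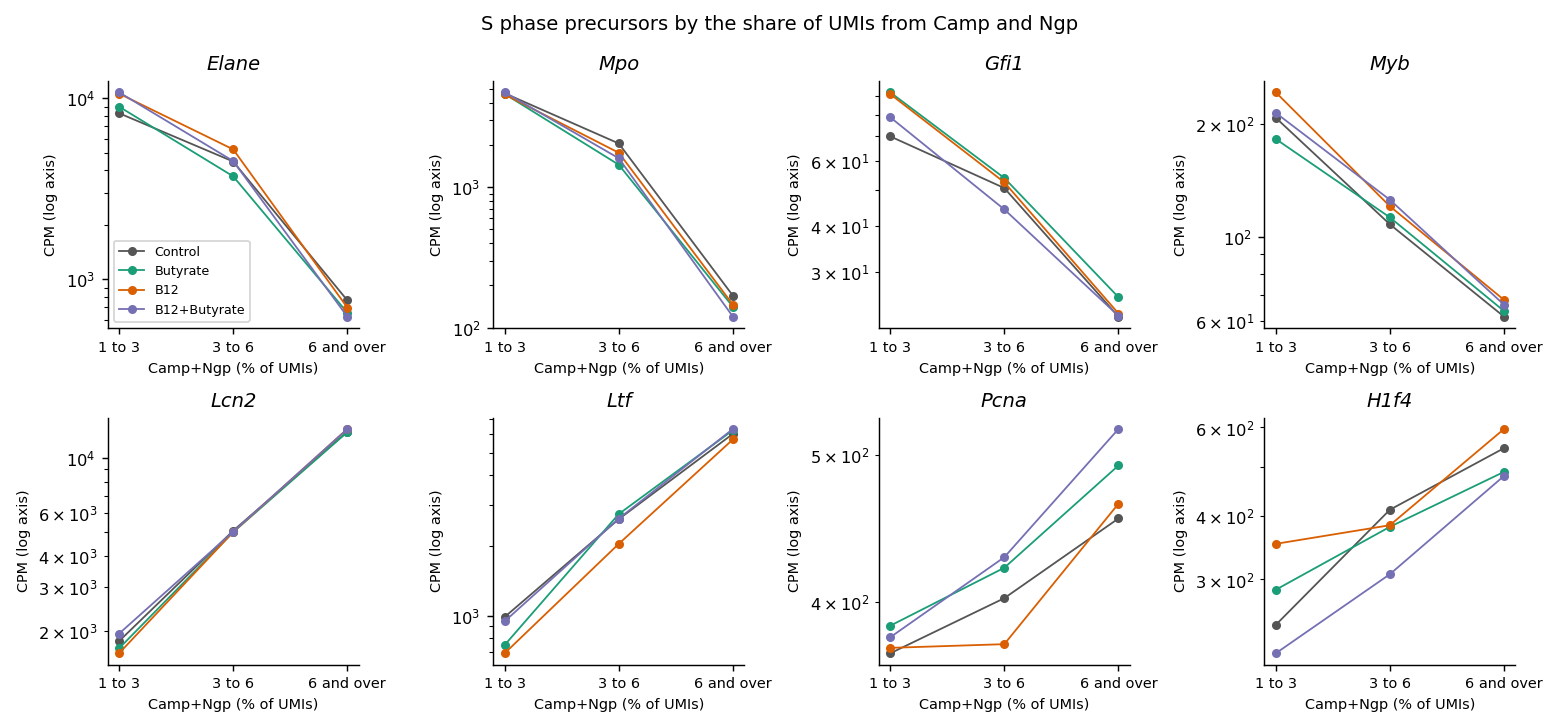
Levels of 8 genes (CPM, log axes) in S phase precursors split by the share of UMIs from Camp and Ngp, 1 point and line per library. From the lowest to the highest band Elane, Mpo, Gfi1 and Myb go down and Lcn2 and Ltf go up in all 4 libraries, while Pcna spans less than the others.

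Members were also split by the M sum, which is part of the rule, so that the cell cycle genes below move with the split and only describe it. Members with 0 UMIs of it had Cdc6 at 87.9, 87.2, 90.6 and 82.5 CPM, and those with 3 and over had 54.5, 42.8, 47.1 and 47.5 CPM. E2f1 went from 83.3, 80.4, 76.2 and 85.6 to 44.6, 40.9, 40.3 and 40.4 CPM, and Uhrf1 from 159.9, 154, 160.2 and 154 to 107, 102, 108 and 105 CPM. All 3 were lower in the band with the higher M sum in every library. Pcna was lower there too, by less, at 439, 505, 462 and 548 and 433, 459, 432 and 474 CPM. H1f4 went from 177, 165, 187 and 163 to 667, 678, 792 and 675 CPM and H4c4 from 68.2, 85.2, 110.3 and 95.97 to 310.3, 429.8, 420.5 and 464 CPM. Top2a, at 182 to 199 and 458 to 525 CPM, and Ccna2, at 20.5 to 24.96 and 90.8 to 97.9 CPM, were higher in the band with the higher M sum. Elane did not share this order, at 3012, 1675, 2243 and 1800 and 1996, 1605, 2307 and 1777 CPM, nor did Cebpe, at 379 to 416 and 344 to 404 CPM.

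Between libraries, few genes of the members differed by 1.5-fold. Log2 ratios were taken after adding 10 CPM, over genes at 50 CPM or more in either library. For Butyrate over Control, 3 of 2839 genes were higher (0.106%) and 19 lower (0.669%). For B12+Butyrate over B12, 1 of 2778 was higher (0.036%), mt-Nd3, and 1 lower (0.036%), Olfm4. For B12 over Control, 2 of 2849 were higher (0.0702%), Olfm4 and Hspa1b, and 11 lower (0.386%). For B12+Butyrate over Butyrate, 0 of 2765 were higher (0%) and 2 lower (0.0723%), Lars2 and Olr1. Butyrate over Control shares no library with B12+Butyrate over B12, and no gene passed in the same direction in both; the same held for B12 over Control and B12+Butyrate over Butyrate.

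The cell cycle lists held no gene past 1.5-fold in any of the 4 comparisons. Median log2 ratios of licensing genes were -0.01, -0.05, 0.03 and 0.04 for Butyrate over Control, B12+Butyrate over B12, B12 over Control and B12+Butyrate over Butyrate, and those of fork genes -0.02, 0.02, -0.01 and 0.03. Over all genes at 10 CPM or more the medians were -0.05, -0.01, -0.03 and 0.01. Nucleotide supply genes had -0.05, -0.00, 0.02 and 0.07, E2F and G1/S genes 0.03, 0.00, 0.02 and 0.02, repair genes -0.01, 0.02, 0.02 and 0.02, and methylation upkeep genes -0.02, -0.02, -0.01 and 0.01. G2/M genes were lower in B12+Butyrate than in B12 for 22 of 22 (median -0.12) and lower than in Butyrate for 18 of 22 (-0.07). They move with the M sum, and members with an M sum of 3 and over were 52.1%, 49.1%, 49.9% and 47.0% of the libraries' members. The part of this split in the shift was not tested. Histone supply genes were higher in B12 than in Control for 16 of 19 (0.09), and the 4 measured CDK inhibitors for 4 of 4 (0.15). These shifts are small and have no replicate. For counts of direction, here and below, the share of all genes going the same way was not counted.

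Most primary granule genes were lower in Butyrate than in Control. Of 10 measured at 10 CPM or more, 8 were lower, 3 of them past 1.5-fold (Mpo, Prtn3 and Ctsg), with a median log2 ratio of -0.37. Of all genes at 50 CPM or more, 19 of 2839 (0.669%) were lower by 1.5-fold in this comparison. The share of all genes at the 10 CPM minimum was not counted. The summed level of the 11 genes on the list differed less, at 17950, 17300, 17380 and 18080 CPM. Lyz2, lysozyme, makes up most of that sum and was at 10640, 11870, 10640 and 12210 CPM, 0.16 on the log2 scale for Butyrate over Control. Mpo was at 1055 (1042 to 1069), 675 (663 to 687), 785 (774 to 796) and 716 (705 to 727) CPM, with Control above the other 3 libraries. Prtn3 was at 1807 (1789 to 1825), 1155 (1139 to 1170.3), 1538 (1523 to 1553) and 1219 (1205 to 1234) CPM and Ctsg at 428 (419 to 436), 221 (214 to 228), 331 (324 to 338) and 267 (260.1 to 274) CPM, both with Control highest, then B12, B12+Butyrate and Butyrate. Their log2 ratios for Butyrate over Control were -0.64, -0.64 and -0.92, and for B12+Butyrate over B12 -0.13, -0.33 and -0.30. Elane was at 2351 (2331 to 2372), 1737 (1718 to 1756), 2270 (2252 to 2289) and 2004 (1986 to 2022) CPM. In B12+Butyrate over B12, 9 of 10 were lower (median -0.14) with none past 1.5-fold, in B12 over Control 8 of 10 (-0.11), and in B12+Butyrate over Butyrate 2 of 10 (0.09). Secondary granule genes were higher in Butyrate than in Control for 14 of 15 (0.11), with none past 1.5-fold.

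Several measures moved with the primary granule genes. Control held the largest share of members in the lowest Camp and Ngp band. With the 3 bands weighted alike in every library, the log2 ratios of Butyrate over Control were -0.31 for Mpo, -0.39 for Prtn3, -0.58 for Ctsg and -0.18 for Elane, and none of the 4 passed 1.5-fold. The 5 progenitor markers summed to 6091, 4189, 5405 and 4636 CPM. That sum follows by construction, since it holds Mpo, Elane, Prtn3 and Ctsg themselves. Its remaining gene, Ms4a3, was at 449, 402, 481 and 430.5 CPM, with B12 highest. The 7 monocyte markers summed to 310, 164, 186 and 189 CPM, and all 7 were highest in Control, among them F13a1 at 82.95, 49.8, 55.2 and 55.3, Ccr2 at 49.2, 20.9, 28.1 and 22.9 and Irf8 at 46.4, 19.5, 23.6 and 27.6 CPM. Mpo also had a UMI in 28.8%, 10.3%, 10.2% and 6.29% of T cells, against 61.6%, 42.9%, 43.0% and 38.8% of members, and Elane in 24.9%, 6.67%, 8.03% and 5.71% of T cells against 70.4%, 55.6%, 61.9% and 57.5% of members. Control thus had the highest share in both cell types. Summed over the T cells, Mpo was at 396.8, 65.8, 407 and 414 CPM, lowest in Butyrate but not highest in Control. Elane was at 632, 20.5, 285 and 517 CPM in T cells, Prtn3 at 566.5, 49.6, 389 and 441 CPM and Ctsg at 299, 24.8, 135 and 220 CPM. These 3 genes were highest in Control and lowest in Butyrate, as in members. Non-cycling precursors had Mpo at 52.9, 17.3, 17.8 and 11.1 CPM. The part of these measures in the result was not tested.

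ER chaperones and genes of ribosome making moved the same way. Of 15 ER genes at 10 CPM or more, 13 were lower in Butyrate than in Control (median -0.28, 2 past 1.5-fold). The share of all genes past 1.5-fold in that comparison was 0.669%, at 50 CPM or more. Of the 15, 13 were lower in B12+Butyrate than in B12 (-0.16) and 13 in B12 than in Control (-0.12). In B12+Butyrate over Butyrate 10 were higher (0.05). Calr, calreticulin, was at 215 (209 to 221), 125 (120.1 to 130.4), 152 (147 to 157) and 147 (142 to 152) CPM, with Control highest and Butyrate lowest. Hspa5, the chaperone BiP, was at 383, 364, 426 and 354 CPM, with B12 highest. Of 11 genes of ribosome making, 11 were lower in Butyrate than in Control (-0.18) and 10 in B12 than in Control (-0.08), and 9 of 10 in B12+Butyrate than in B12 (-0.09), none past 1.5-fold. Within members both Calr (508 to 911 and 60.5 to 65.02 CPM in the outer granule bands) and Ncl (346 to 501 and 154 to 159 CPM) follow the same bands as Mpo. With the bands weighted alike, Calr in Butyrate over Control was at -0.49.

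Olfm4, olfactomedin 4, a granule protein made by a subset of neutrophils, had the highest log2 ratio in B12 over Control among genes that reached 100 CPM in either library. It was at 88.5 (84.6 to 92.5), 127 (122 to 132), 269 (263 to 276) and 111 (106 to 115) CPM in members, so B12 stood above the other 3 by more than 2 times. The log2 ratio was 1.504 for B12 over Control and -1.21 for B12+Butyrate over B12. More cells carried the gene in B12. A UMI was found in 76 of 980 members in Control (7.76%, 6.16 to 9.61%), 67 of 871 in Butyrate (7.69%), 240 of 1248 in B12 (19.2%, 17.1 to 21.5%) and 86 of 994 in B12+Butyrate (8.65%). Cells with a UMI held 25.3, 34.9, 28.8 and 29.0 UMIs on average. With members thinned to 5000 UMIs the shares were 6.39%, 7.41%, 18.3% and 7.68%, leaving out 9, 7, 7 and 4 shallower members. In T cells without thinning they were 0.265%, 0%, 2.19% and 0%, where 0 of 300 and 0 of 175 cells allow shares of up to 1% and 1.71%. B12 was highest as well in mitotic precursors (7.35%, 5.33%, 19.9% and 8.52%) and non-cycling precursors (7.59%, 6.61%, 21.3% and 7.05%), whose CPM were 91.8, 74.8, 335 and 116 and 230.5, 199, 729 and 222. B12 holds 3 pooled mice that cannot be told apart, so a difference of 1 mouse and one of the treatment cannot be told apart either.

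Other differences touched stress genes and genes that shift over whole libraries. Hspa1b, an inducible heat shock protein, was at 99.6 (95.4 to 104), 132 (127 to 138), 197 (192 to 203) and 142 (137 to 147) CPM, highest in B12 and lowest in Control, and Hspa1a at 67.8, 88.1, 107 and 72.6 CPM. T cells had Hspa1b at 549.6, 692, 1012 and 708 CPM, with the same library highest and lowest. Handling response genes were higher than in Control for 13 of 14 in Butyrate (median 0.25) and for 12 of 14 in B12 (0.21), and lower for 8 of 13 in B12+Butyrate than in B12 (-0.08). Cmss1, a ribosome biogenesis factor, was at 382 (374 to 391), 691 (679 to 703), 429.6 (422 to 438) and 527 (518 to 537) CPM and Lars2, the mitochondrial leucyl-tRNA synthetase, at 201 (195 to 207), 304 (296 to 312), 175 (169.8 to 180.1) and 191 (185 to 197) CPM, both highest in Butyrate. In T cells Cmss1 was at 689.7, 994, 904 and 992 CPM and Lars2 at 372, 485, 439 and 352 CPM. Of the 9 genes of this list, chosen from earlier results on these libraries, 8 were higher in Butyrate than in Control (0.30) and 9 lower in B12+Butyrate than in Butyrate (-0.18). Egr1, an immediate early gene, was at 54.5, 93.2, 72.99 and 73.4 CPM and passed 1.5-fold in Butyrate over Control (0.68), and Cdk8, a Mediator kinase, did so as well (0.66).

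Some genes lower than Control mark other cells. Igkc, an antibody light chain, was at 512, 27.5, 5.96 and 10.97 CPM, and 1 cell held 48.9% and 10 cells 97.9% of its 11138 UMIs in Control. Jchain (69.9, 1.03, 0.117 and 0.0888 CPM) and Ighm (198, 76.6, 55.3 and 68.3 CPM) were also highest there. The 5 plasma cell markers summed to 355, 151, 130 and 141 CPM. Cd74 was at 117, 69.3, 45.97 and 55.6 CPM, H2-Aa at 59.2, 39.7, 21.3 and 26.2 CPM and Zeb2, a monocyte and dendritic cell factor, at 174, 98.98, 104 and 107 CPM, and the 7 dendritic cell markers summed to 161, 90.4, 63.6 and 79.3 CPM. With called doublets removed, the genes lower in Butyrate than in Control numbered 8 and those lower in B12 than in Control 3.

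**Figure D5:**
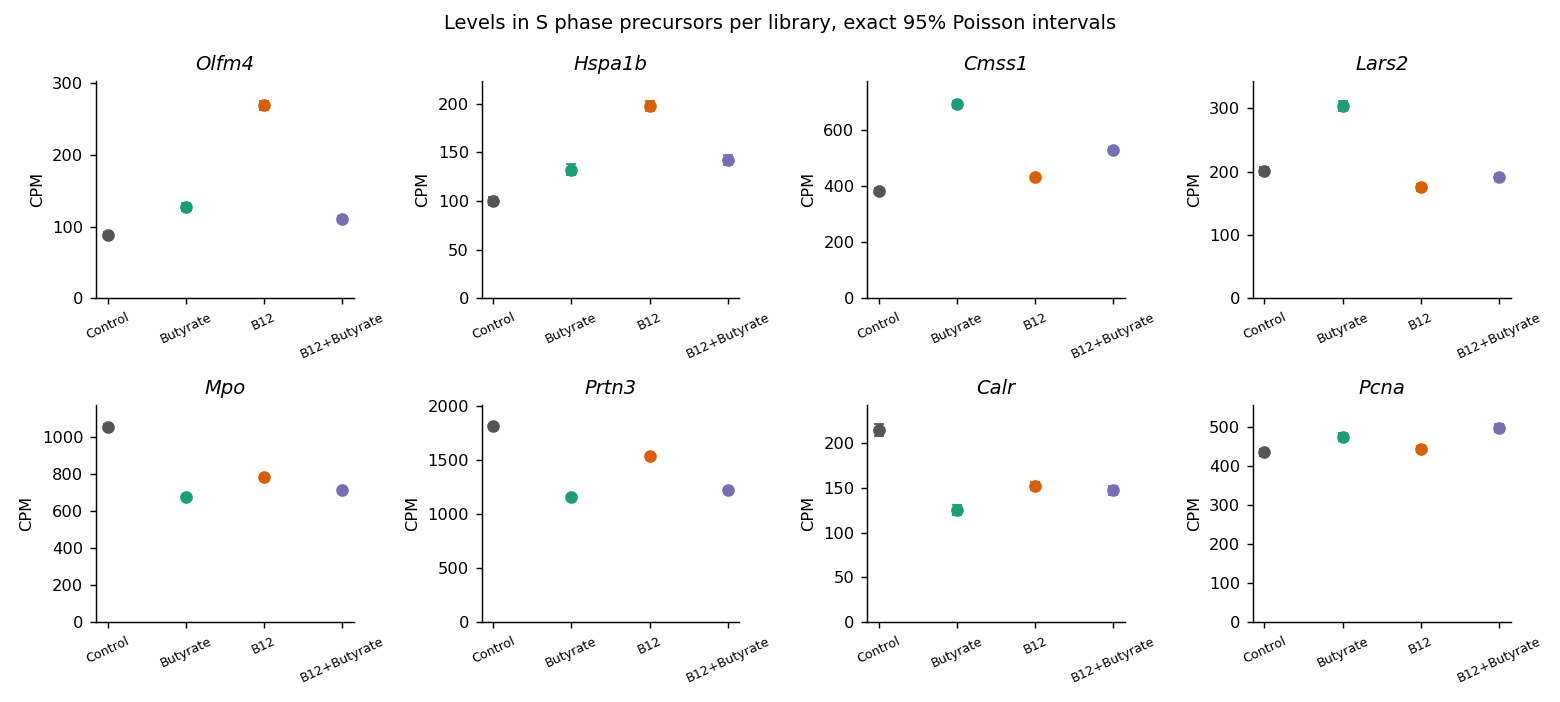
Levels of 8 genes in S phase precursors (CPM, y axes starting at 0), 1 point per library with exact 95% Poisson intervals, some smaller than the point. Olfm4 and Hspa1b are highest in B12, Cmss1 and Lars2 in Butyrate, and Mpo, Prtn3 and Calr in Control, while Pcna spans 435 to 497 CPM.

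Lists tied to the treatments stayed near the median of all genes. Folate and methionine cycle genes had median log2 ratios of 0.02, -0.02, -0.01 and 0.03 over 8 or 9 measured genes, and cobalamin genes 0.03, 0.02, -0.02 and -0.00 over 5 or 6. Butyrate targets and transporters had 0.00, -0.00, -0.06 and -0.03 over 10 to 12 measured genes, with Hdac9 past 1.5-fold on a lower minimum of 10 CPM in B12 over Control (32.8, 24.1, 17.00 and 25.9 CPM). Purine and pyrimidine genes were lower in Butyrate than in Control for 12 of 14 (-0.12). Lineage factors had medians of -0.01, -0.06, 0.01 and 0.02, surface genes 0.02, 0.02, -0.02 and 0.02, and maturation genes -0.04, -0.05, -0.09 and 0.00. The 7 measured interferon genes had -0.10, 0.18, -0.09 and 0.08 (6 genes in the last), and the 11 NF-kB genes 0.13, -0.07, -0.08 and -0.10. Single genes of these lists passed 1.5-fold at the 10 CPM minimum. In Butyrate over Control 1 NF-kB gene was higher, and 2 maturation, 1 interferon and 1 lineage gene were lower. In B12 over Control 1 maturation, 1 interferon and 1 lineage gene were lower. In B12+Butyrate over Butyrate 3 NF-kB genes were lower. Of sex-linked genes only Xist was measured, at 777, 783, 782 and 738 CPM. Cebpe and Kit, at 355, 411, 395 and 393 and 46.1, 48.9, 46.05 and 49.6 CPM, and Tet2, at 61.2 (57.98 to 64.6), 60.6 (57.1 to 64.3), 55.3 (52.5 to 58.3) and 52.5 (49.6 to 55.6) CPM, did not differ by 1.5-fold in any comparison.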

How the data were processed

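Single-cell 3′ RNA libraries (10x, v3.1 chemistry per the labels' protocols) of 4 groups were read from deposited UMI counts per gene and cell barcode. Per the file headers, Cell Ranger 7.1.0 was the authors' counting tool, and the submitters' processing notes name GRCm39. The treatment of intronic reads is not stated in those sources. Cells entered with a minimum of 500 genes and 1000 UMIs and with mitochondrial transcripts no higher than 10%, and doublets were called on simulated doublets (scikit-learn 1.9.0, 50 neighbours, 0.8% per 1000 cells) but not removed. UMIs were summed per library and class. Members and gene lists were chosen with earlier results of these data known.

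Libraries were compared as log2 ratios of CPM (own scaling of counts to 1000000 UMIs, pseudocount 10 CPM) and given with exact Poisson intervals and no test. Classes were compared with edgeR 4.0.16 (R 4.3.3; TMM factors, quasi-likelihood, library as block), leaving uncalled the 12 genes that define the classes; its log2 differences carry the TMM factors and can differ from those of the CPM. Its p-values measure the spread of the class difference over 4 libraries of different treatment. The shared replicate number of the libraries is 1 in every group and pairs nothing; the block is the library itself, since each class comes from the same cells' library. Scripts were tested on simulated data. Genes were named as the 10 highest and 10 lowest log2 ratios per comparison at 100 CPM or more, the same for classes outside the cell cycle lists, and members of 25 gene lists and 13 marker lists. Of the list symbols, 3 were not matched. Alternatives were another cell filter, cycling minimum, gate, doublet removal, thinning, pseudocount, minimum level, scaling, band makeup, DESeq2 1.42.0, no low count filter, no block and each library left out. Tables and plots used Python 3.11.15 with numpy 2.4.6, scipy 1.17.1, pandas 2.3.3 and matplotlib 3.10.9.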

Additional observations from a re-analysis of the deposited data

Results flagged for a closer look

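The share of S phase precursors among filtered cells was higher in Butyrate than in Control and lower in B12+Butyrate than in B12. The log2 ratio was 0.20 for Butyrate over Control and -0.25 for B12+Butyrate over B12, with 1 library per group on every side. The difference between the 2 ratios was not tested. Within the neutrophil gate the ratios of shares were 1.06 (95% interval 0.986 to 1.14) and 0.866 (0.809 to 0.927). With cells thinned to 5000 UMIs and shallower ones left out, the log2 ratio of Butyrate over Control among the remaining cells was 0.0438. Its 95% interval holds 0 (-0.126 to 0.213). Within the gate it was then -0.0903 (-0.248 to 0.067), the same sign as B12+Butyrate over B12 (-0.32).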

How the results depend on the processing

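Groups of 1 library give no replicate error, 3 mice per pool cannot be separated, and the mixture of cKit+ and cKit- cells fixes part of every share. Of the values that answer a comparison, 173 stayed within their limits under the alternatives and 43 moved; the causes were not tested. Thinning to 5000 UMIs left out the shallower cells. Among the remaining cells, the log2 ratio of the share was 0.0438 for Butyrate over Control and -0.38 for B12+Butyrate over B12. Within the gate it was -0.0903, -0.32 and, for B12+Butyrate over Butyrate, -0.16. Thinning also left 2090 genes higher and 2083 lower in S phase than in mitotic precursors by edgeR. Genes higher by 1.5-fold in Butyrate than in Control (3) numbered 5 with doublets removed, 6 thinned, 5 with a pseudocount of 1 CPM, 5 with no minimum level, 5 with TMM scaling and 7 with bands weighted alike. Genes lower (19) numbered 11 with Camp and Ngp at 2%, 8 with doublets removed, 31 with a minimum of 20 CPM, 38 with none and 3 with bands weighted alike. For B12+Butyrate over B12, genes higher (1) numbered 0 with the looser cell filter, 2 with a minimum of 20 CPM and 2 with none, and genes lower (1) numbered 2 with doublets removed, 4 thinned and 3 with no minimum. For B12 over Control, genes higher (2) numbered 5 thinned, 4 with a pseudocount of 1 CPM, 4 with no minimum and 4 with TMM scaling. Genes lower (11) numbered 7 with Camp and Ngp at 2%, 3 with doublets removed, 2 thinned, 28 with a minimum of 20 CPM, 34 with none and 6 with bands weighted alike. For B12+Butyrate over Butyrate, genes higher (0) numbered 1 with no minimum. Genes lower (2) numbered 1 with a cycling minimum of 8 UMIs, 1 with doublets removed, 4 with a minimum of 20 CPM and 7 with none. Past 1.5-fold in both butyrate comparisons were 1 gene higher with bands weighted alike and 1 lower with thinning, and in both B12 comparisons 1 gene lower with a minimum of 20 CPM and 1 with none. Leaving out each library gave 3263 to 3620 genes higher and 3367 to 3846 lower than in mitotic precursors, and 4423 to 4677 higher and 4185 to 4286 lower than in non-cycling ones. Without the block on library, 3124 were higher and 3277 lower than in mitotic precursors, and 4619 and 4398 than in non-cycling ones. DESeq2 gave 2729 and 2856, and 4080 and 4024. Among single genes, Igkc over non-cycling precursors went to 3.14 with doublets removed, Gfi1 lost its call with thinning (0.19, edgeR adjusted p 0.14), and Olfm4 gained one over mitotic precursors without the Butyrate library (-0.25, edgeR adjusted p 0.00181).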
